A study of Homo sapiens with 9 samples.

Results

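The endoplasmic reticulum (ER) chaperones and secretory pathway genes described here are 36 gene symbols. They cover the HSP70-type chaperones of the ER and their co-chaperones, the calnexin cycle, disulfide and proline isomerases, the translocation channel, ER-associated degradation and the sensors of ER stress. Members were found by the gene symbol annotated to each probe set. Where several probe sets read a gene, the brightest on average over the 9 arrays was taken. Of the 36 symbols, 34 had a probe set that listed that symbol alone, and 26 of these reached a log2 value of 4 on at least 3 arrays and were tested, within 4368 tested genes of 11963 named genes. The other 8 lay below 4 on more than 6 arrays and were counted apart, and DNAJB11 and SYVN1 were not analysed here.

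Transcripts of HK-2 cells, an immortalised line of human kidney proximal tubule epithelium, were measured with 9 Affymetrix arrays. TGFβ1 is a profibrotic cytokine under which such epithelial cells take on mesenchymal traits, and the series compares cells before and during exposure to it. The groups were untreated HK-2 cells at 0 h, HK-2 cells after 24 h of TGFβ1 and HK-2 cells after 48 h of TGFβ1, with 3 arrays in each. All groups shared a DMEM-F12 medium with EGF, hydrocortisone, triiodothyronine, insulin, transferrin and selenium. The experiment was run on 3 days with consecutive passages of the 1 cell line, and the plates of a time point were pooled within a day, so an array is 1 run of 1 time point. The sample titles number the replicates and do not state the day. That arrays of the same number come from the same run was inferred from correlations between arrays. The sample labels call the 0 h cells untreated and the design text calls them vehicle, no dose of TGFβ1 is stated in the labels, and no untreated culture was sampled at 24 or 48 h. Time in culture and TGFβ1 therefore cannot be told apart.

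Array medians lay at log2 2.2 to 2.23, 28.2% to 29.3% of probe sets reached 4, and arrays correlated at 0.978 to 0.994. Known TGF-beta targets rose with treatment: the mean of PMEPA1, an inhibitor of the pathway, went from 2.43 to 5.12 at 24 h and 4.90 at 48 h, that of SMAD7 from 3.59 to 5.20 and 5.28, and that of the Notch ligand JAG1 from 5.39 to 9.46 and 9.59 (limma adjusted p = 4.5e-05, 0.0241 and 0.000643 at 24 h). The untreated means of PMEPA1 and SMAD7 lay under the filter value of 4, so both genes needed the treated arrays to pass the filter. The SMAD7 call at 24 h was lost without any 1 of the 24 h arrays (adjusted p = 0.0514, 0.0783 and 0.074) or without replicate 1 or 2 (0.173 and 0.0757), and that of JAG1 without replicate 1 (0.0544). Of 7 epithelial markers, KRT8, KRT18, KRT19, EPCAM and CDH6 reached 4 on all 9 arrays and KRT7 and the E-cadherin gene CDH1 on 0. Of 8 proximal tubule markers with a probe set, PAX8 reached 4 on 9 arrays. LRP2, CUBN, SLC34A1, AQP1, ANPEP, SLC22A6 and SLC5A2 reached it on 0. The segment is therefore taken from the label and was not shown by these markers. EPCAM (−1.27 at 24 h) and PAX8 (−0.60 at 24 h) fell with treatment (adjusted p = 0.00116 and 0.0233). The other epithelial markers did not all fall. At 24 h KRT8, CDH6 and KRT18 were at 0.65, 0.75 and 0.14 and KRT19 at −0.19 (limma adjusted p = 0.064, 0.398, 0.803 and 0.606). With the replicate number in the limma fit, KRT8 passed at 24 h (adjusted p = 0.0123) and CDH6 at 48 h (1.33, adjusted p = 0.00659). LUM was the 1 of 7 fibroblast markers that reached 4, and 0 of 5 endothelial and 0 of 4 leukocyte markers did. In these bulk samples a change in the share of cells that express a gene and a change in its RNA per cell cannot be told apart.

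Proteins that are secreted or built into membranes enter the ER through the SEC61 channel, lose their signal peptide, receive sugar chains and disulfide bonds, and fold with the help of chaperones. Proteins that fail to fold are retained, extracted and degraded, and an excess of them activates 3 membrane sensors, IRE1 (ERN1), PERK (EIF2AK3) and ATF6. IRE1 splices the XBP1 transcript, and spliced XBP1 and cleaved ATF6 raise transcription of the chaperone and degradation genes, the unfolded protein response. Tubule cells that take on a mesenchymal state secrete more matrix, whose collagens and glycoproteins are folded in this compartment.

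Many members are classical targets of that response, and their promoters are shown because they carry the elements that XBP1 and ATF6 are known to use. Promoters were read from RefSeq sequences on GRCh38.p14 as windows of 300 bases, 250 before and 50 after each start site. They were searched on both strands for the ER stress response element (ERSE, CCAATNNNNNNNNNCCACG), its second form (ERSE-II, ATTGGNCCACG) and the unfolded protein response element (UPRE, TGACGTGG). A window was found for 34 of the 36 members. ERSE was held by 6 of these 34 members, beside 25 of all 27305 genes with a window (0.0916%). ERSE-II was held by 3 members, beside 19 genes (0.0696%). The following sequences give 1 site of each of the 9 members, 5′ to 3′ on the strand of the gene with 8 bases on each side, and capitals mark the fixed letters of the element in either orientation.
HSPA5 (ERSE, window chr9:125241294-125241593, minus strand): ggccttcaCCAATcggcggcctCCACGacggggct
XBP1 (ERSE, window chr22:28800520-28800819, minus strand): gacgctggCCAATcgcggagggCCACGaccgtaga
CALR (ERSE, window chr19:12938359-12938658, plus strand): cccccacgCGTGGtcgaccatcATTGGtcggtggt
CANX (ERSE, window chr5:179698679-179698978, plus strand): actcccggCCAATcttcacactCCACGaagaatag
HSP90B1 (ERSE, window chr12:103930160-103930459, plus strand): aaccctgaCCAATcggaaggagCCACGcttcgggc
PDIA6 (ERSE, window chr2:10812736-10813035, minus strand): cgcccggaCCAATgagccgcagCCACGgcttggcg
HERPUD1 (ERSE-II, window chr16:56931892-56932191, plus strand): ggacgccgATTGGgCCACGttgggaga
HYOU1 (ERSE-II, window chr11:119057156-119057455, minus strand): ccccgtgaCGTGGtCCAATcccaggcc
SDF2L1 (ERSE-II, window chr22:21642052-21642351, plus strand): ctcggaagCGTGGaCCAATcaaaaccc

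The HSP90B1 window held a second ERSE and the HYOU1 window a second ERSE-II. UPRE was found in the window of 1 member, HYOU1, where it overlaps the ERSE-II site printed. In all it was held by 253 of 27305 genes (0.927%). Among 109 other genes of the secretory pathway with a window, 1 (ERO1B) held ERSE and 16 held UPRE. A match is a description of these letters and not a measured binding site. The 250 bases before the start site are given for HSPA5, which encodes the master chaperone BiP, and for XBP1, which encodes the transcription factor of the response, because both hold ERSE close to the start, 66 to 48 and 52 to 34 bases before it.
HSPA5 (chr9:125241344-125241593, minus strand): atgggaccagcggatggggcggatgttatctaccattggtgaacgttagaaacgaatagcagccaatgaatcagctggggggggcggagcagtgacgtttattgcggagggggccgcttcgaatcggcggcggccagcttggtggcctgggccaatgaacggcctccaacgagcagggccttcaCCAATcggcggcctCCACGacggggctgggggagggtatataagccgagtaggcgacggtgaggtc
XBP1 (chr22:28800570-28800819, minus strand): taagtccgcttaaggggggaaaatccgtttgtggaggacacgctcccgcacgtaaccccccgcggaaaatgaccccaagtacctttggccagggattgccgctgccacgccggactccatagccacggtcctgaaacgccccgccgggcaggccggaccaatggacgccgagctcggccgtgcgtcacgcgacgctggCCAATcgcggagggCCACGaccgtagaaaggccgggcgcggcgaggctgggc

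No member passed the test for a difference from untreated cells after 24 or 48 h of TGFβ1, and most differences were small. In limma, with p-values adjusted by Benjamini-Hochberg across all 4368 genes, 0 of 26 members passed the threshold of 0.05 at 24 h, beside 4.81% of all genes tested, and 0 passed at 48 h, beside 4.44%. With the replicate number as a block, which removes the level of each run, 0 members again passed at either time, beside 11.5% of genes at 24 h and 10% at 48 h. At an unadjusted p under 0.05, 2 members passed at 24 h (SEC61A1 higher, DNAJB9 lower), which is 7.69% of members beside 16% of genes, and 2 at 48 h (PDIA3 higher, DNAJB9 lower), beside 13.9%. With the block, 6 members at 24 h (23.1%) and 5 at 48 h (19.2%) had an unadjusted p under 0.05, beside 27.7% and 22.9% of genes.

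The middle of the members lay close to 0 and close to that of all genes. The median log2 difference of the 26 members was 0.07 at 24 h and 0.09 at 48 h, beside 0.015 and 0.02 over all genes tested. At 24 h 17 members lay above 0 and 9 below, from −0.51 (DNAJB9) to 0.61 (SEC61A1), beside 52.4% of all genes above 0. At 48 h 16 lay above and 10 below, from −0.56 (DNAJB9) to 0.47 (XBP1), beside 54.7% of genes above 0. The smallest adjusted p of a member was 0.228 at 24 h (SEC61A1) and 0.238 at 48 h (DNAJB9), and with the block it was 0.0605 and 0.0544, both for XBP1.

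**Figure D1:**
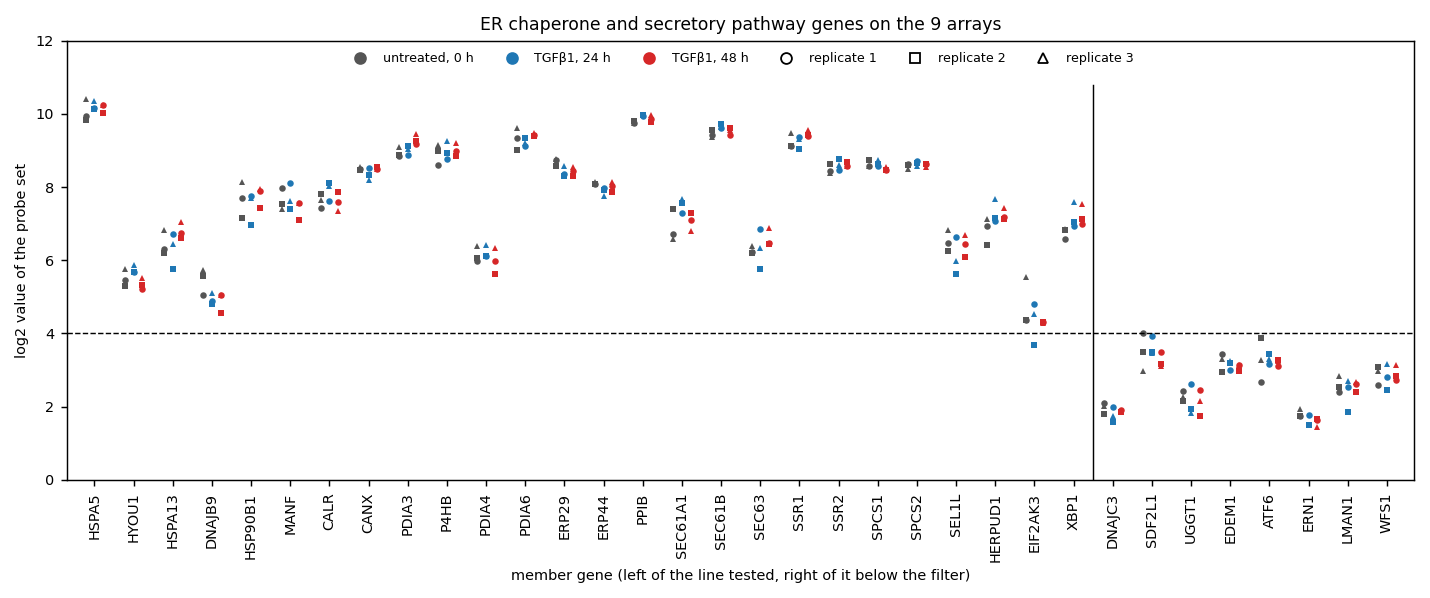
Log2 value of the probe set of each of the 34 members on the 9 arrays. The horizontal axis lists the genes, colour gives the time and marker shape the replicate, and the dashed line is the log2 value of 4 used in the filter. For most genes the 3 colours overlap, and the 8 genes to the right of the vertical line lie below 4 on more than 6 arrays; levels of different genes are not to be compared.

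A p-value above the threshold does not show that a level stayed the same, so the intervals were read as well. The 95% interval of the difference lay within 1 log2 unit of 0 for 23 of the 26 members at 24 h (88.5%), beside 80.5% of all genes, and for 24 at 48 h (92.3%), beside 83.1%. The exceptions were SEC61A1, SEL1L and EIF2AK3 at 24 h and DNAJB9 and EIF2AK3 at 48 h. With the block the counts were 24 (92.3%, beside 88.6% of genes) and 25 (96.2%, beside 90.2%). A change of 2-fold or more therefore lay outside the unadjusted interval of most members. How far smaller changes also lay outside differed between members. At 48 h the interval was −0.23 to 0.29 for SPCS2 and −0.23 to 0.95 for HSPA13. The median SE (standard error) of a member's difference was 0.181, beside 0.191 over all genes.

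**Figure D2:**
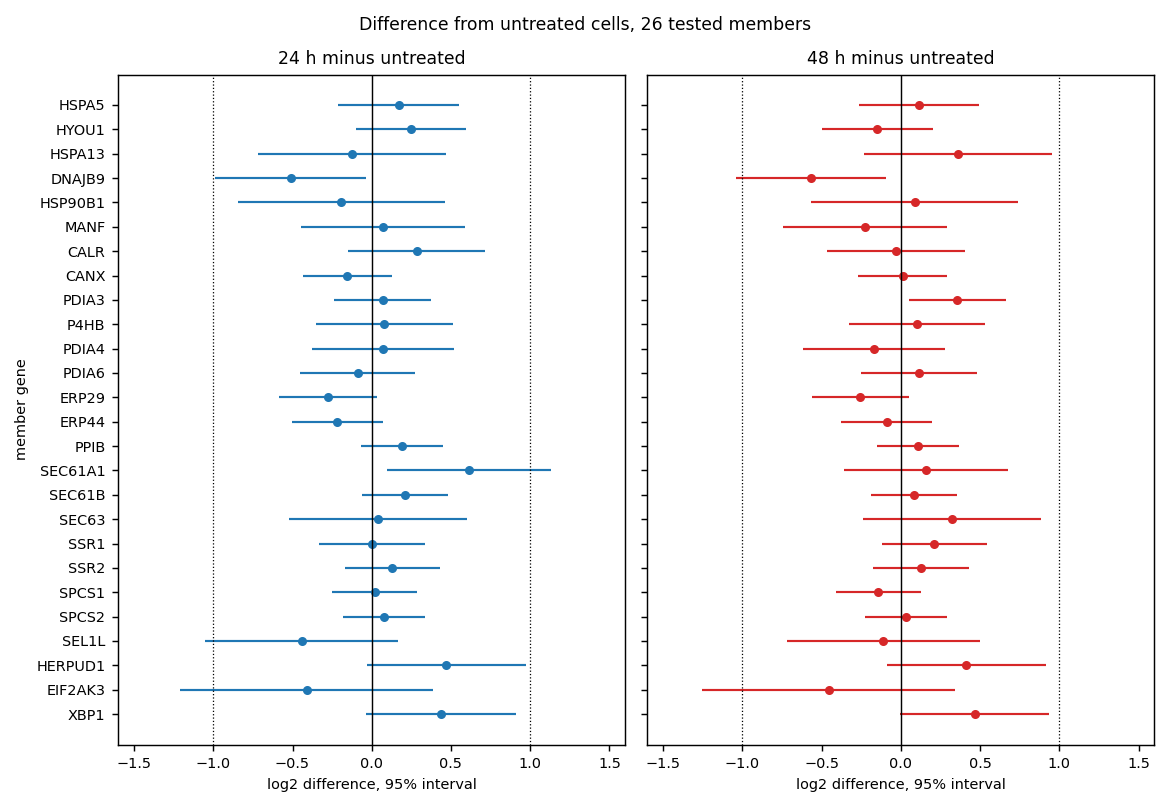
Log2 difference from untreated cells (points) with its unadjusted 95% interval from limma (bars) for the 26 tested members, at 24 h in the left panel and at 48 h in the right panel, 3 arrays per group. Dotted lines mark 1 log2 unit on either side of 0; the interval of EIF2AK3, the widest of the members, reached from −1.21 to 0.39 at 24 h.

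Compared within runs, some members had the same sign each time, with small differences. All 3 runs had the same sign for 13 of 26 members at 24 h (50%, 10 higher and 3 lower), beside 44.8% of all genes, and for 13 at 48 h (50%, 8 higher and 5 lower), beside 41.5%. Treated and untreated arrays did not overlap for 4 members at 24 h (PPIB, SEC61B and XBP1 higher, ERP44 lower), which is 15.4% of members beside 16.4% of genes. At 48 h they did not overlap for 6 members (PDIA3, SEC63 and XBP1 higher, ERP29, SPCS1 and EIF2AK3 lower), 23.1% beside 18.1%. These shares of members lay near those of all genes.

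The chaperone BiP and its partners form the HSP70 system, which binds unfolded chains as they enter the ER. HSPA5, which encodes BiP, was at 9.93, 9.82 and 10.39 in untreated replicates 1, 2 and 3, at 10.17, 10.13 and 10.35 after 24 h and at 10.23, 10.03 and 10.24 after 48 h. The groups overlapped, and run 3 began highest and ended lower than it began. The differences were 0.17 (interval −0.21 to 0.55, limma adjusted p = 0.68) and 0.12 (−0.26 to 0.50, adjusted p = 0.879), with an SE of 0.169.

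DNAJB9, a co-chaperone that directs BiP to the sensor IRE1 and to degradation substrates, was at 5.05, 5.56 and 5.74 in untreated cells, 4.89, 4.81 and 5.11 at 24 h, and 5.05, 4.56 and 5.05 at 48 h. Replicates 2 and 3 were lower at both times, whereas replicate 1 started low and was at the same level at 48 h, and the groups overlapped. The differences, −0.51 at 24 h and −0.56 at 48 h with an SE of 0.211, had limma adjusted p of 0.274 and 0.238 (0.106 and 0.0934 with the block). HYOU1, a nucleotide exchange factor and chaperone for BiP, was at 5.46, 5.28 and 5.75 untreated, 5.69, 5.68 and 5.87 at 24 h and 5.22, 5.32 and 5.51 at 48 h. Every run was highest at 24 h, with differences from untreated cells of 0.25 at 24 h (adjusted p = 0.508) and −0.15 at 48 h (adjusted p = 0.801).

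HSPA13, an HSP70-like protein of the ER and microsomes, was read by a pair of tested probe sets that disagreed. The brighter set, which stands for the gene, was at 6.30, 6.19 and 6.83 untreated, 6.73, 5.76 and 6.45 at 24 h and 6.74, 6.61 and 7.04 at 48 h, with differences of −0.13 (adjusted p = 0.872) and 0.36 (adjusted p = 0.669). The dimmer set was at 4.63, 5.30 and 5.62 untreated, 5.66, 5.77 and 6.25 at 24 h and 5.99, 6.18 and 6.40 at 48 h. On the dimmer set all treated arrays were above all untreated arrays, while on the brighter set they overlapped. With every probe set tested, the differences of the dimmer set, 0.71 and 1.01 with an SE of 0.261, had limma adjusted p of 0.222 and 0.07, and of 0.0167 and 0.00336 with the block. It was the 1 member probe set of 41 tested that passed with the block, beside 10.8% of all 5918 probe sets tested at 24 h and 9.38% at 48 h. Without the block 0 of 41 passed, beside 4.36% and 4.14%. Why the sets differ was not tested.

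HSP90B1 encodes GRP94, the HSP90-type chaperone of the ER that folds integrins and Toll-like receptors. It was at 7.69, 7.17 and 8.13 in untreated cells, 7.76, 6.95 and 7.70 at 24 h and 7.88, 7.43 and 7.94 at 48 h. Replicate 2 was the lowest array at each time, and the times overlapped, with differences of −0.19 (interval −0.85 to 0.46, limma adjusted p = 0.813) and 0.09 (−0.57 to 0.74, adjusted p = 0.97). MANF, a secreted ER stress protein that binds BiP, was at 7.98, 7.54 and 7.40 untreated, 8.11, 7.40 and 7.61 at 24 h and 7.57, 7.11 and 7.56 at 48 h. Its groups overlapped too, with differences of 0.07 and −0.23 (SE 0.23, adjusted p = 0.926 and 0.79).

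In the calnexin cycle, calreticulin (CALR) and calnexin (CANX) hold glycoproteins with trimmed sugar chains, and PDIA3 forms their disulfide bonds. PDIA3 was at 8.86, 8.88 and 9.08 in untreated cells, 8.88, 9.12 and 9.03 at 24 h and 9.18, 9.26 and 9.46 at 48 h. At 48 h all 3 arrays were above all untreated and all 24 h arrays. The difference was 0.07 at 24 h (adjusted p = 0.865) and 0.36 at 48 h (SE 0.136, interval 0.05 to 0.66), which had an unadjusted p of 0.0273 and did not pass in limma (adjusted p = 0.251; 0.0863 with the block).

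CALR was at 7.44, 7.82 and 7.64 untreated, 7.61, 8.10 and 8.04 at 24 h and 7.60, 7.88 and 7.33 at 48 h. Every run was higher at 24 h than untreated and lower at 48 h than at 24 h, but the groups overlapped, and the differences from untreated cells were 0.28 (adjusted p = 0.536) and −0.03 (adjusted p = 0.988). The 3 tested probe sets of CALR differed in sign at 48 h, from −0.03 on the brightest to 0.45. On its brightest probe set CANX lay between 8.21 and 8.55 on all 9 arrays, with differences of −0.15 and 0.01 (adjusted p = 0.6 and 0.993). Its 3 tested probe sets ranged from 0.01 to 0.53 at 48 h. On the dimmest, the 48 h arrays (5.57, 5.58 and 5.93) were all above the untreated ones (4.82, 5.27 and 5.40). That difference did not pass in limma over every probe set (adjusted p = 0.193, and 0.0856 with the block).

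Among the disulfide and proline isomerases, which pair cysteines and turn proline bonds, ERP29 and ERP44 lay lower and PPIB higher by small amounts. ERP29, a thioredoxin-fold protein without a redox motif, was at 8.74, 8.56 and 8.77 untreated, 8.36, 8.30 and 8.59 at 24 h and 8.44, 8.30 and 8.56 at 48 h. Every run was lower at both times, and at 48 h the highest treated array lay just under the lowest untreated one. The differences were −0.28 and −0.26 with an SE of 0.137 (limma adjusted p = 0.369 and 0.497). ERP44, which retrieves unassembled proteins from the early secretory pathway, had differences of −0.09, −0.19 and −0.38 in the 3 runs at 24 h and of −0.05, −0.23 and 0.01 at 48 h (adjusted p = 0.47 and 0.879).

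PPIB encodes cyclophilin B, a proline isomerase that also binds procollagen. It was at 9.74, 9.79 and 9.76 untreated, 9.93, 9.96 and 9.98 at 24 h and 9.87, 9.77 and 9.97 at 48 h. The runs were close together, all 24 h arrays were above all untreated ones, and the difference of 0.19 at 24 h had an interval of −0.07 to 0.45 (limma adjusted p = 0.487). P4HB, the disulfide isomerase that is also the beta subunit of prolyl hydroxylase, had differences of 0.08 and 0.10 (adjusted p = 0.893 and 0.917). PDIA6 had −0.09 and 0.11 (0.847 and 0.876), and PDIA4, a protein with several thioredoxin-like domains, 0.07 and −0.17 (0.912 and 0.83).

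SEC61A1 had the largest difference of any member at 24 h. It encodes the channel of the translocon, through which new chains enter the ER, and was at 6.71, 7.40 and 6.58 in untreated cells, 7.29, 7.58 and 7.67 at 24 h and 7.09, 7.28 and 6.80 at 48 h. All runs were highest at 24 h, and untreated replicate 2 lay above the 24 h array of replicate 1. The difference was 0.61 at 24 h (SE 0.231, interval 0.09 to 1.13, limma adjusted p = 0.228; 0.0642 with the block) and 0.16 at 48 h (adjusted p = 0.879). It passed at 24 h without untreated replicate 2 (0.87, adjusted p = 0.0379) and with array quality weights (0.78, adjusted p = 0.0358), and in none of the other 17 alternatives.

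Other translocation genes were nearer to 0. SSR1, a subunit of the translocon-associated protein complex, was at 9.13, 9.13 and 9.47 untreated, 9.37, 9.05 and 9.31 at 24 h and 9.40, 9.42 and 9.55 at 48 h. Run 3 began high and the groups overlapped, with differences of 0.00 and 0.21 (SE 0.148, limma adjusted p = 0.999 and 0.641). SEC61B, the small beta subunit of the channel, was higher in each run at 24 h, by 0.21, 0.16 and 0.26, and at 48 h by 0.01, 0.05 and 0.19 (adjusted p = 0.46 and 0.878). SEC63, which recruits BiP to the channel, was at 0.62, −0.45 and −0.04 in the 3 runs at 24 h and at 0.24, 0.24 and 0.49 at 48 h (adjusted p = 0.967 and 0.696). SSR2, another subunit of that complex, had differences of 0.13 at both times, and SPCS1 and SPCS2 of the signal peptidase complex lay between −0.14 and 0.08. The intervals of SSR2, SPCS1 and SPCS2 all lay between −0.41 and 0.43.

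In ER-associated degradation, HERPUD1 lay higher in every run. It encodes a membrane protein that organises the HRD1 ubiquitin ligase and was at 6.93, 6.42 and 7.13 in untreated cells, 7.06, 7.16 and 7.68 at 24 h and 7.17, 7.13 and 7.43 at 48 h. Replicate 2 began lowest and had the largest differences, and untreated replicate 3 overlapped the treated arrays. The differences of 0.47 and 0.41 with an SE of 0.222 did not pass in limma (adjusted p = 0.344 and 0.498; 0.0704 and 0.119 with the block). SEL1L, the adaptor of the same ligase, was at 0.15, −0.63 and −0.85 in the 3 runs at 24 h and at −0.03, −0.18 and −0.12 at 48 h (adjusted p = 0.496 and 0.954).

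XBP1, whose transcript is spliced by IRE1, came closest to the threshold in the fit with the block. It was at 6.58, 6.81 and 6.86 in untreated cells, 6.94, 7.04 and 7.59 at 24 h and 6.99, 7.12 and 7.55 at 48 h. All treated arrays were above all untreated arrays, and replicate 3 had the largest differences. The differences of 0.44 (interval −0.04 to 0.91) and 0.47 (−0.01 to 0.94) with an SE of 0.21 had limma adjusted p of 0.354 and 0.37, and of 0.0605 and 0.0544 with the block. The probe set reads the transcript and gives no measure of its splicing here. EIF2AK3, which encodes PERK, was at 4.36, 4.36 and 5.54 untreated, 4.81, 3.69 and 4.54 at 24 h and 4.31, 4.31 and 4.29 at 48 h. The spread of the untreated and 24 h arrays was wide beside a narrow one at 48 h, and the differences of −0.41 and −0.46 had an SE of 0.354 (adjusted p = 0.624 and 0.696).

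**Figure D3:**
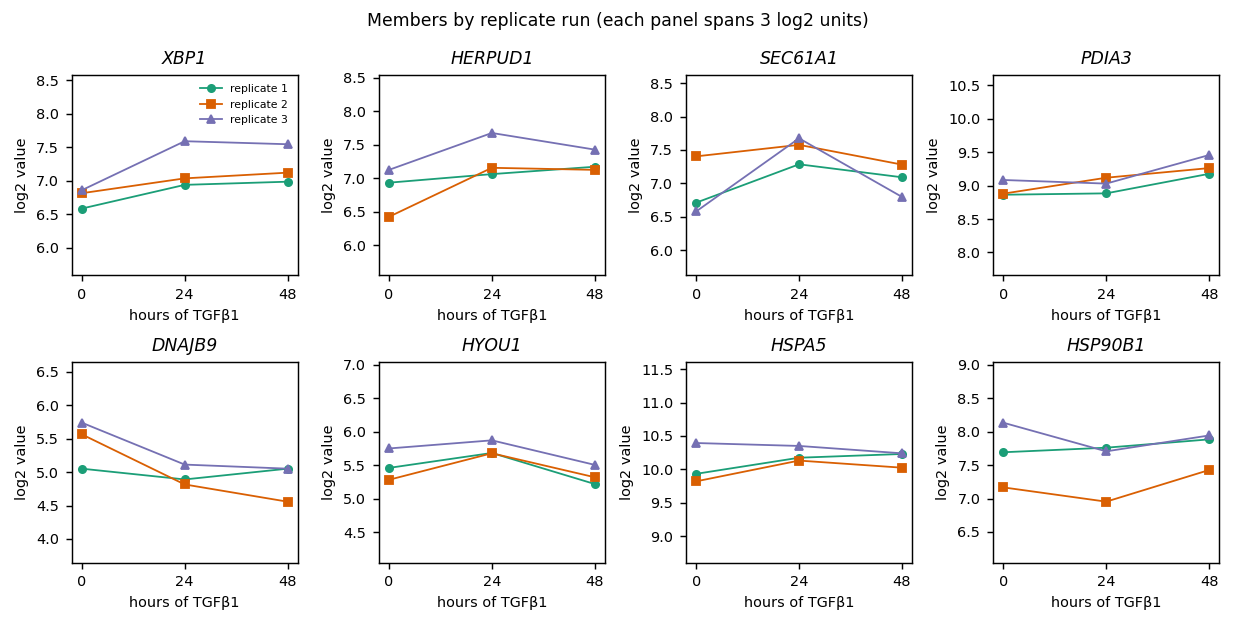
Log2 value (vertical axis) against hours of TGFβ1 (horizontal axis) for 8 members, 1 line per replicate run, with every panel spanning 3 log2 units. XBP1 and HERPUD1 lie higher at both treated times in every run, SEC61A1 and HYOU1 are highest at 24 h in every run, and the HSP90B1 line of replicate 2 lies below the other two throughout.

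The 8 members below the filter were ATF6 and ERN1, the other stress sensors, DNAJC3 and SDF2L1, co-chaperones of BiP, UGGT1, the folding sensor of the calnexin cycle, EDEM1, which sends mannose-trimmed glycoproteins to degradation, LMAN1, a cargo receptor for export, and WFS1, an ER membrane protein of calcium balance. Their values are near the floor of the background correction and were not tested. SDF2L1 had group means of 3.49, 3.63 and 3.26 and reached 4 on 1 array, at 4.01 in untreated replicate 1, and the other 7 reached it on none. ATF6 had means of 3.27, 3.29 and 3.22, with untreated arrays from 2.66 to 3.87. ERN1 had means of 1.80, 1.58 and 1.57. A value below 4 does not show that the transcript was absent.

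Of 16 members read by several probe sets, 9 had more than 1 that was tested, and there the choice of the brightest set was compared with the others. At 24 h the signs differed between sets of HSPA13, PDIA6 and SSR1, and at 48 h between sets of CALR and SPCS2. The differences spanned −0.13 to 0.71 over the sets of HSPA13 at 24 h and −0.03 to 0.45 over those of CALR at 48 h. Those of PDIA6 spanned −0.09 to 0.01 at 24 h and those of SPCS2 −0.03 to 0.03 at 48 h, so these disagreed in sign while close to 0.

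The 8 tested members with ERSE or ERSE-II in the window had a median difference of 0.21 at 24 h and 0.10 at 48 h, with 5 and 6 of the 8 above 0. The 16 tested members with a window and without either element had 0.06 at both times, with 10 and 9 of the 16 above 0. HERPUD1, XBP1, CALR, HYOU1 and HSPA5 were the 5 that lay above 0 at 24 h, and CANX, PDIA6 and HSP90B1 lay below. None of the 8 passed the threshold at either time, and these medians are a description with no test.

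Between 24 and 48 h the members again gave no call. In limma 0 of 26 passed, beside 0% of all genes tested, and with the block 0, beside 0%. At an unadjusted p under 0.05, 1 member passed (HYOU1, lower at 48 h), 3.85% beside 5.01% of genes, and with the block 4 did (15.4%, beside 16.2%). The sign was shared by all 3 runs for 14 members (53.8%, 5 higher and 9 lower at 48 h), beside 43.5% of genes, and the arrays did not overlap for 7 (26.9%), beside 12.6%. Those 7 were PDIA3, PDIA6 and SSR1, higher at 48 h, and HYOU1, SEC61A1, SEC61B and SPCS1, lower. The share of members without overlap was above that of all genes, while the fit found no difference past the threshold.

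HYOU1 did not pass although its runs were close, at −0.46, −0.36 and −0.37, a mean of −0.40 (SE 0.156, limma adjusted p = 0.781; 0.217 with the block). SEC61A1 was at −0.19, −0.30 and −0.88 (mean −0.45, adjusted p = 0.781) and CALR at −0.01, −0.22 and −0.71 (mean −0.31, adjusted p = 0.781). In the other direction, HSPA13 was at 0.01, 0.85 and 0.59 on its brighter probe set (mean 0.49, adjusted p = 0.781) and PDIA3 at 0.29, 0.14 and 0.43 (mean 0.29, adjusted p = 0.781). The median over the members was −0.02, beside 0.00 over all genes, and the interval lay within 1 log2 unit of 0 for 25 of 26 members (96.2%), beside 87% of genes, with HSPA13 outside it, and for all 26 with the block, beside 94.9%. The 24 h and 48 h arrays also enter the differences from untreated cells, so these values are not independent of them.

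The runs differed from each other in the level of some members. In an F test of the replicate number in limma, with time in the model, HSP90B1 passed (adjusted p = 0.0246), the 1 of 26 members that did (3.85%), beside 14.7% of all genes. Its means over the 3 arrays of a run were 7.78, 7.18 and 7.93. Only its brighter probe set was tested, as the other that lists HSP90B1 alone did not pass the filter. The call was lost without untreated replicate 2 (adjusted p = 0.084), without 24 h replicate 2 (0.101) or without 48 h replicate 3 (0.0539). HSPA13 passed as well without 24 h replicate 1, and XBP1 without untreated replicate 3. The next smallest adjusted p belonged to XBP1 (0.0607), with run means of 6.84, 6.99 and 7.33, MANF (0.0707), PDIA4 (0.0714), HERPUD1 (0.0776) and P4HB (0.0876).

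In replicate 3, 19 of the 26 members had a mean over its arrays above their mean over all 9 arrays, with a median of 0.13, beside 55.5% of all genes and a median of 0.02. In replicate 1 it was 9 members, with a median of −0.03, beside 45.7% of genes and −0.02. In replicate 2 it was 7, with a median of −0.09, beside 50.9% and 0.005. XBP1, PDIA4, HERPUD1 and P4HB were each highest in run 3, and MANF in run 1. Replicate numbers were taken as runs, which the labels do not state. On that reading run, passage and day are 1 factor in this design and cannot be told apart.

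**Figure D4:**
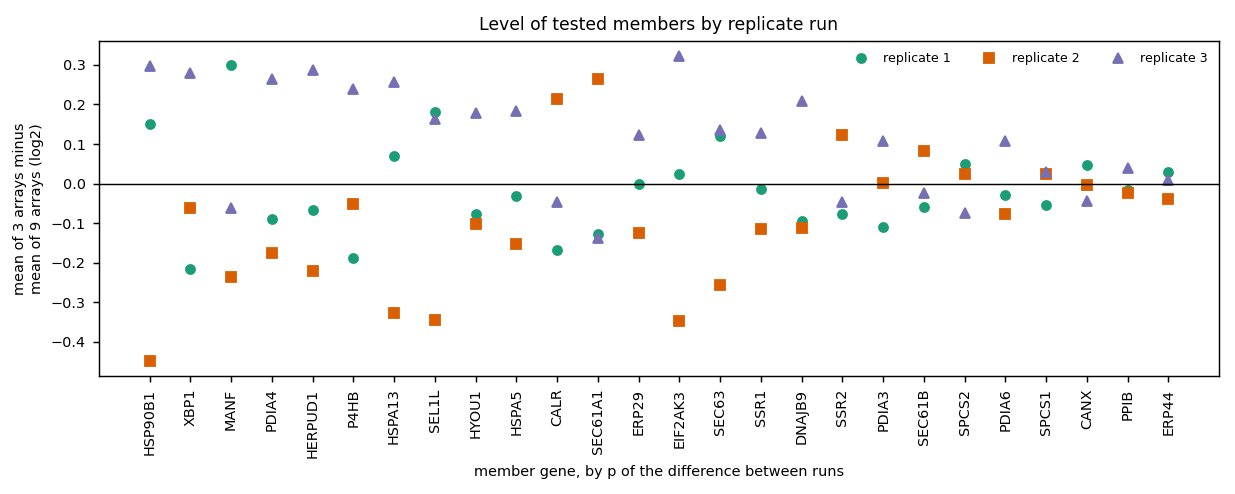
Mean of the 3 arrays of a replicate run minus the mean of all 9 arrays (log2, vertical axis) for each tested member, ordered by the p of the difference between runs. Replicate 3 lies above 0 for 19 of 26 members, and HSP90B1, at the left, passed the threshold with a low level in replicate 2.

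Other genes of the secretory pathway and of the stress response were taken from 11 lists of 126 genes, of which 107 had a probe set and 86 were tested. At 24 h 1 rose and 1 fell (2.33% of the 86, beside 4.81% of all genes tested), and with the block 2 rose and 3 fell (5.81%, beside 11.5%). At 48 h 2 rose and 2 fell (4.65%, beside 4.44%), and 5 and 3 with the block (9.3%, beside 10%). These shares lay near or below those of all genes. Between 24 and 48 h 0 passed in limma, with or without the block. The median over the 86 genes was 0.11 at 24 h and 0.07 at 48 h.

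CREB3L1 rose most clearly. It encodes a transcription factor of the ER membrane that is released by proteolysis and known for driving collagen secretion genes. It was at 4.66, 4.76 and 4.65 in untreated cells, 6.06, 6.19 and 6.19 at 24 h and 6.13, 5.93 and 6.17 at 48 h. The treated arrays were all more than 1 log2 unit above the untreated ones, with differences of 1.45 and 1.39 (2.74-fold and 2.61-fold, SE 0.123, limma adjusted p = 0.000371 and 0.000329). It passed at both times in 19 of 19 alternatives. It was the 1 call of 3 tested genes in its list of membrane-bound transcription factors and their proteases.

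P4HA2, the catalytic subunit of a collagen prolyl hydroxylase, whose beta subunit is the member P4HB, was at 7.63, 7.74 and 7.98 untreated, 8.28, 8.54 and 8.94 at 24 h and 8.58, 8.46 and 8.91 at 48 h. Treated and untreated arrays did not overlap, and replicate 3 was highest at each time. It rose at 48 h (0.86, SE 0.199, limma adjusted p = 0.0413) and was at 0.80 at 24 h (adjusted p = 0.0549), and it passed at both with the block (0.00366 and 0.0026). The 48 h call was kept in 9 of 19 alternatives. It was lost with no filter (adjusted p = 0.06), without a whole replicate 1, 2 or 3 (0.316, 0.191 and 0.0989), without untreated replicates 1 or 2 (0.158 and 0.107), without 24 h replicate 2 (0.0609) and without 48 h replicates 1, 2 or 3 (0.114, 0.0709 and 0.17). In that list of 8 tested collagen chaperones and hydroxylases, SERPINH1, the collagen chaperone HSP47, was at 0.08 and 0.12 (adjusted p = 0.786 and 0.775).

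DDIT3, the transcription factor CHOP downstream of PERK, passed the filter through the untreated arrays, where it was highest, and its test at 48 h depended on that filter. It was at 5.11, 4.69 and 4.35 untreated, 3.92, 4.14 and 3.99 at 24 h and 3.95, 3.83 and 3.96 at 48 h. The treated arrays lay near the filter value of 4, and the untreated ones were spread above them. The differences were −0.70 (adjusted p = 0.0728) and −0.80 (SE 0.186, adjusted p = 0.0416), and with the block it passed at both times (0.0358 and 0.0218). With no filter the 48 h call was lost (adjusted p = 0.059). It was kept in 4 of 18 alternatives, and lost also with centred arrays (0.0541), with an intensity trend (0.0569), without any whole replicate (0.0989 to 0.329) and without any 1 array other than untreated replicate 3, with adjusted p from 0.0534 (without 24 h replicate 1) to 0.146 (without 48 h replicate 2). CEBPB, a partner of CHOP, was at −0.48 and −0.77 (adjusted p = 0.374 and 0.136; 0.0409 and 0.00533 with the block). ATF4, which acts above CHOP, was at 0.19 and 0.14 (adjusted p = 0.612 and 0.822), and of 6 tested genes in this list 0 rose.

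ITPR3, a channel that releases calcium from the ER, fell at both times. It was at 5.63, 5.996 and 5.96 untreated, 4.95, 5.03 and 5.36 at 24 h and 4.90, 4.81 and 4.94 at 48 h. No treated array reached an untreated one. The differences were −0.75 and −0.98 (SE 0.158, limma adjusted p = 0.0284 and 0.00736). The 24 h call was lost without 24 h replicates 1 or 2 (adjusted p = 0.0682 and 0.0991), untreated replicates 2 or 3 (0.0684 and 0.0794) or 48 h replicates 1 or 3 (0.0567 and 0.0511), and with array quality weights (0.0548), and like the 48 h call it was lost without a whole replicate, at 48 h without replicate 1, 2 or 3 (0.0905, 0.108 and 0.0763). It was the 1 call among 6 tested genes of ER calcium handling.

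The list of the ER export coat and its cargo receptors had the highest median of the 11 lists at 48 h. Of 13 tested genes of the COPII coat, which buds vesicles towards the Golgi, and of cargo receptors, 0 passed in limma. The medians were 0.28 and 0.30. SEC24D, a cargo-binding subunit, was at 4.62, 3.81 and 5.62 untreated, 5.06, 5.29 and 5.80 at 24 h and 5.77, 5.77 and 6.42 at 48 h. Each run was higher at 24 h than at 0 h and higher again at 48 h, from different starting levels, and the 48 h difference of 1.30 (SE 0.409) had an adjusted p of 0.14, and of 0.01 with the block. It passed without the block when untreated replicate 3 was left out (1.77, adjusted p = 0.0207) or with array quality weights (adjusted p = 0.0126). SEC23A, an inner coat subunit, had a 48 h difference of 0.55 (adjusted p = 0.56, and 0.0346 with the block). Other coat genes of the list lay lower. SEC23B was at −0.17 and −0.37, lower in every run (adjusted p = 0.828 and 0.706, and 0.438 and 0.139 with the block). SEC24A was at −0.19 and −0.22 (adjusted p = 0.883 and 0.926).

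The remaining lists held few calls. UBE2J1, a ubiquitin-conjugating enzyme of ER-associated degradation, was at 0.25 and 0.61 and was the 1 of 11 tested genes of its list to pass with the block (48 h adjusted p = 0.177; 0.0256 with the block). With or without the block, 0 genes passed among 11 other translocation genes, 7 oligosaccharyltransferase genes, 2 glycan trimming genes, 6 further redox and proline isomerase genes and 13 genes of the COPI coat, TMED proteins and KDEL receptors. The smallest p at 48 h in these lists belonged to SRP72 (0.31), STT3A (0.31), GANAB (−0.05), FKBP14 (0.89) and KDELR3 (0.34). Their limma adjusted p were 0.404, 0.516, 0.965, 0.203 and 0.492. FKBP14 passed the filter through treated arrays only, with untreated values of 3.47, 3.12 and 3.74.

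**Figure D5:**
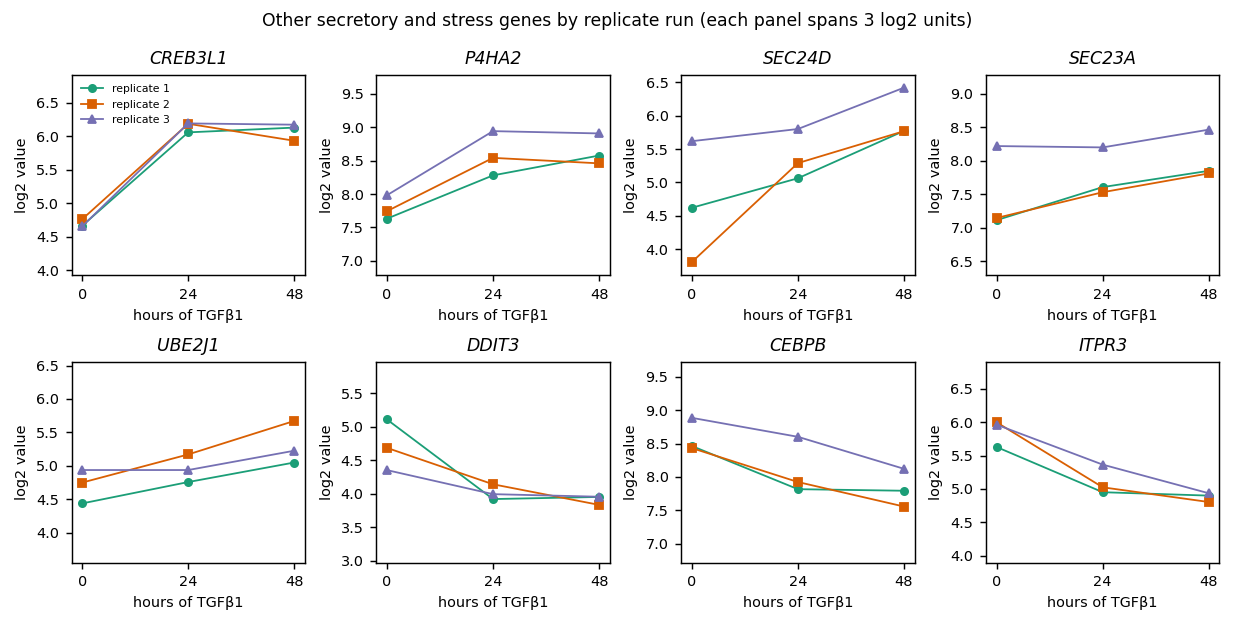
Log2 value (vertical axis) against hours of TGFβ1 (horizontal axis) for 8 genes of the pathway lists, 1 line per replicate run, with every panel spanning 3 log2 units. CREB3L1 and ITPR3 passed the threshold at both times, P4HA2 and DDIT3 at 48 h, and SEC24D, SEC23A, UBE2J1 and CEBPB with the replicate block; the runs of SEC24D, SEC23A and CEBPB start at different levels.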

How the data were processed

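The deposited values are log2 values of 22277 probe sets on 9 Affymetrix arrays, 3 per group; GCRMA is named in the submitters' processing notes, and version, normalisation settings and annotation are not given in the sources used here. GCRMA corrects background by probe sequence and, as commonly run, sets arrays to 1 distribution, in which case low values compress toward a floor and a change in total RNA per cell is not seen. Probe sets were named through the platform annotation, with symbols updated by gene ID: 19070 listed 1 symbol, 1043 several and 2164 none, and those with several were not used, including 2 that list HSP90B1 with another symbol. No pair of arrays was identical. The depth of an array is its number of probes, and 3 arrays per group limit the precision.

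From the authors' log2 values the brightest probe set on average stood for a gene, genes that reached 4 on 3 or more arrays were kept (36.5%), and a linear model (lmFit, eBayes) in limma 3.58.1 under R 4.3.3 was fitted to all 9 arrays without a covariate, with Benjamini-Hochberg adjustment over the 4368 genes. Replicates are separate runs of 1 line, so p-values measure the spread between runs. The titles number the replicates, and deviations from group means correlated at 0.378 to 0.662 between arrays of the same number (9 pairs) and −0.526 to 0.185 between different numbers (18 pairs), so the numbers were taken to pair the arrays and a fit with the number as a block was added. Alternatives were the block, the filter, the probe sets averaged, centring, an intensity trend, array quality weights and leaving out arrays or runs. The test scripts were checked on simulated data.

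Members, gene lists and tests were chosen with earlier results of these data known. The named genes were all members, the pathway genes past the threshold (up to 4 a list, otherwise the gene with the smallest p at 48 h) with DDIT3, and the TGF-beta check genes. SEC23A, SEC23B, SEC24A, CEBPB, ATF4 and SERPINH1 fall outside this rule and were chosen after their values were seen. Promoters came from RefSeq on GRCh38.p14; protein sequences were not used here.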

Additional observations from a re-analysis of the deposited data

Results flagged for a closer look

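PDIA4, a disulfide isomerase of the ER, lay slightly above untreated cells in all 3 runs at 24 h and below them in all 3 runs at 48 h. It was at 5.99, 6.06 and 6.40 in untreated cells, 6.12, 6.12 and 6.41 at 24 h and 5.97, 5.64 and 6.34 at 48 h. The mean differences were 0.07 and −0.17. In limma the difference between 48 and 24 h was −0.24 (adjusted p = 0.793; 0.37 with the replicate block), so the opposite signs were not past the threshold. Within runs the differences were 0.13, 0.06 and 0.01 at 24 h and −0.02, −0.43 and −0.06 at 48 h, and several of these are close to 0. A second tested probe set of PDIA4 gave mean differences of 0.10 and −0.15 but did not repeat the signs in every run. It was at 5.26, 5.25 and 5.15 untreated, 5.21, 5.21 and 5.52 at 24 h and 4.96, 5.03 and 5.21 at 48 h. On this set replicates 1 and 2 were lower at 24 h than untreated, and replicate 3 was higher at 48 h. Groups of 3 arrays were too small to be searched for single outlying samples.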

How the results depend on the processing

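No member passed the threshold in limma at 48 h, or between 24 and 48 h, under any of the 19 alternatives of each comparison. At 24 h the count of members that passed was 0 in 17 alternatives and 1 in the other two, SEC61A1 with array quality weights and without untreated replicate 2, so leaving out 1 array or run gave 0 to 1. No named result reversed among those past the threshold. The replicate block raised the genes that passed from 210 to 501 at 24 h and from 194 to 438 at 48 h, and array quality weights to 408 and 514. It changed no call of a member, but on single probe sets it passed the dimmer one of HSPA13. Leaving out an array or a run gave 34 to 213 genes at 24 h and 33 to 206 at 48 h. In the test between runs, leaving out an array gave 68 to 388 genes, from 641, and 0 to 2 members, from 1. The fall in counts without a run goes with fewer samples.

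The median difference of the members kept its sign in 19 of 19 alternatives at 24 h (0.0043 to 0.1015) and in 18 of 19 at 48 h (−0.0088 with no filter to 0.1157). Between 24 and 48 h it was −0.0764 to 0.057 and kept its sign in 15 of 19. XBP1, HERPUD1, DNAJB9 and ERP29 kept their signs in all alternatives at both treated times, whereas HSP90B1 did so in 17 of 19 at each. At 48 h the smallest limma adjusted p over the alternatives was 0.0524 for PDIA3 and 0.0544 for XBP1. At 24 h that of SEC61A1 was 0.0358. With 3 runs and a median SE of 0.181 without the block, the differences measured for most members could not be told from 0.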
